A study of Mus musculus with 24 samples.

Results

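Keratins are the intermediate filament proteins of epithelial cells, and each filament is built from a type I and a type II keratin. Keratin pairs mark the kind of epithelium. Krt5 (type II) and Krt14 (type I) form the filaments of basal cells, the stem cells that line the trachea and large airways, where Trp63 encodes the transcription factor p63 that maintains the basal state and where Krt15 and Krt17 (both type I) are also found. Krt4 (type II) and Krt13 (type I) are paired above the basal layer of stratified mucosa, such as that of the oesophagus, and in the patches of stratified cells of the airway called hillocks. Krt8 (type II), Krt18 and Krt19 (both type I) are the keratins of simple epithelia and are made by alveolar, club and ciliated cells, and a high Krt8 level is known as a mark of alveolar cells in a transitional state during repair.

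These 10 genes were chosen by gene symbol from the deposited table, and all 10 were found among its 23891 genes. They comprised 5 basal genes (Krt5, Krt14, Krt15, Krt17 and Trp63), 2 hillock genes (Krt4 and Krt13) and 3 simple-epithelium keratins (Krt8, Krt18 and Krt19). The name hillock genes is only a label for Krt4 and Krt13 and assigns no cell type to their values. The data were RNA-Seq of the left lung lobe of 24 C57BL/6 mice. Naïve adult mice (n = 5) were 20 wk old and received saline, and naïve aged mice (n = 5), the saline group of the comparisons, were 80 wk old and received saline. In the HDM group (n = 7), mice of 80 wk were exposed to 50 µg of house-dust mite extract at each dose. In the HDM + Dex group (n = 7), mice of the same age had the same exposure. They also received the glucocorticoid drug dexamethasone (4 mg/kg, every 72 h over the period of HDM challenge). The lobes of both were collected 24 h after HDM was last given. The left lobe is mostly alveolar tissue, and the 10 marker genes of type 2 alveolar cells summed to 3529 to 15076 CPM (library-scaled read counts, explained next) over the 24 libraries.

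Values are given in CPM, the reads of a gene scaled to the library total, and a gene without a read was listed by the authors at 0.0001. The depth estimated from the spacing of low values was 10.1 to 33.1 M reads per library, so that 3 reads, taken here as the smallest detectable amount, were worth 0.0906 to 0.298 CPM. These limits cover counting error only. The share of CPM at Rn7s1 and Rn7s2, which encode 7SL RNA, was 9.92% to 18.1% in the saline libraries and 27.1% to 34.0% in 5 of the 7 HDM libraries, and it reached 42.0% in naïve adult replicate 1. In whole tissue, fewer cells of a type and less RNA per cell cannot be told apart.

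Krt8, the member with most bases in common with another gene, and its processed pseudogene Krt8-ps (chromosome 7, 23357125 to 23358069, plus strand of GRCm38) could be aligned without a gap over the 945 bases of the pseudogene, and 98.2% of the bases were identical. Of the 1909 stretches of 50 bases, the read length in the methods, that the Krt8 transcript holds, 514 (26.9%) also occurred in Krt8-ps. The 60 bases printed here, positions 143 to 202 of the Krt8 coding sequence, show how close they are, with capitals at the bases that differ.
Krt8: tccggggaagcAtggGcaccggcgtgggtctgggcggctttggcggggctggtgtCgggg
Krt8-ps: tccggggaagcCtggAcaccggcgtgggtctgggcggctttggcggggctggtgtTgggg
Counted from 1 at the 5′ end of this window, the changes from Krt8 to Krt8-ps were A12C, G16A and C56T. A read that falls between such bases fits both genes, so the values of Krt8 and Krt8-ps are uncertain where they are read apart, and both are given. Of the other members, Krt14 shared 13.9% of its stretches of 50 bases, mostly with Krt16, Krt5 shared 8.52%, mostly with Krt6a, and Krt17 shared 3.99%. Krt15 and Krt18 shared under 1% each (0.640% and 0.720%), and Krt4, Krt13, Krt19 and Trp63 shared 0.

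The promoter entries of RefSeq (GRCm38.p6) held 5 of the 10 members, Krt5, Krt13, Krt14, Krt8 and Krt18. Krt15, Krt17, Krt19, Krt4 and Trp63 were not matched. The bases before the annotated start are printed for Krt5 and Krt13, which were high in the same library, and for Krt8 and Krt18, whose levels moved together between libraries. The window of Krt5 is chr15:101712906-101713155 on the minus strand, that of Krt13 chr11:100121567-100121816 on the minus strand, that of Krt8 chr15:102004483-102004592 on the minus strand, and that of Krt18 chr15:102027966-102028179 on the plus strand. The windows of Krt8 and Krt18 are shorter because the RefSeq start lies 140 and 36 bases inside the gene as GENCODE gives it. Capitals mark matches to the motifs searched.
Krt5: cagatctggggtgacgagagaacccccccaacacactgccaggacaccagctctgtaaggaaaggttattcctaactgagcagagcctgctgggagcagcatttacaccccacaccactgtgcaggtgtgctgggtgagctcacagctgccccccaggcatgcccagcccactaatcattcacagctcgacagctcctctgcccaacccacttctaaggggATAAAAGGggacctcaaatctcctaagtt
Krt13: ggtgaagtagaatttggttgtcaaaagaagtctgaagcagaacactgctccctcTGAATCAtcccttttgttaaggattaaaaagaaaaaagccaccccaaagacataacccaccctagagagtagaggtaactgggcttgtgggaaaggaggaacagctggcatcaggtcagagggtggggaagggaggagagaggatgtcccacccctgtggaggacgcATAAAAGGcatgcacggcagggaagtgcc
Krt8: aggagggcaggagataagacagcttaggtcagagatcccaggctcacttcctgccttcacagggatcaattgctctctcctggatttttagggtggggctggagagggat
Krt18: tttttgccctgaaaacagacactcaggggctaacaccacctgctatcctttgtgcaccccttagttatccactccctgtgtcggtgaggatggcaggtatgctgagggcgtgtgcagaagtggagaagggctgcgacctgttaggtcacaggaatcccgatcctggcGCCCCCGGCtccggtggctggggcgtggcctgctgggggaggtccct
The motifs searched on both strands were the TATA box (TATAAA), AP-1 (TGANTCA), AP-2 (GCCNNNGGC), the GC box (GGGCGG) and the glucocorticoid response element, and the letters ATAAAAGG were added after the sequences had been read. ATAAAAGG ended 22 bases before the end of the window in both Krt5 and Krt13, and it is held by 1.54% of all 32851 promoter windows of 250 bases. The AP-1 letters occurred in the Krt13 window, as in 6.75% of all windows of that length. The AP-2 letters occurred in the Krt18 window, as in 11.5% of all windows of 214 bases. The windows of Krt5, Krt13, Krt8 and Krt18 held no match to TATAAA, which 12.4% of the windows of 250 bases hold, nor to the glucocorticoid response element, which 0.387% of them hold, nor to those of the GC box, which 32.7% of them hold.

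The members fell into 2 ranges of abundance. Krt8, Krt18 and Krt19 were detected far above 3 reads in all 24 libraries, at 37.2 to 168 CPM for Krt8, 47.1 to 141 CPM for Krt18 and 76.6 to 154 CPM for Krt19. Per kilobase of merged exons, the median level over all libraries was 56.4 CPM for Krt19, 49.5 CPM for Krt18 and 34.6 CPM for Krt8. The basal and hillock genes were near the limit of detection in 22 of the 24 libraries, where their highest value was 0.768 CPM for Krt5, 0.489 CPM for Krt14, 4.30 CPM for Krt15, 0.633 CPM for Krt17, 1.44 CPM for Trp63, 0.379 CPM for Krt4 and 0.341 CPM for Krt13. In those 22 libraries, 3 reads or fewer were found in 20 for Krt4, 18 for Krt13, 17 for Krt17, 15 for Krt14, 13 for Krt5, 6 for Krt15 and 4 for Trp63. Per kilobase, the median of these 22 libraries was highest for Krt15, at 0.302 CPM, and was 0.0911 CPM for Krt14, 0.0700 CPM for Trp63 and 0.0488 CPM for Krt5.

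**Figure D1:**
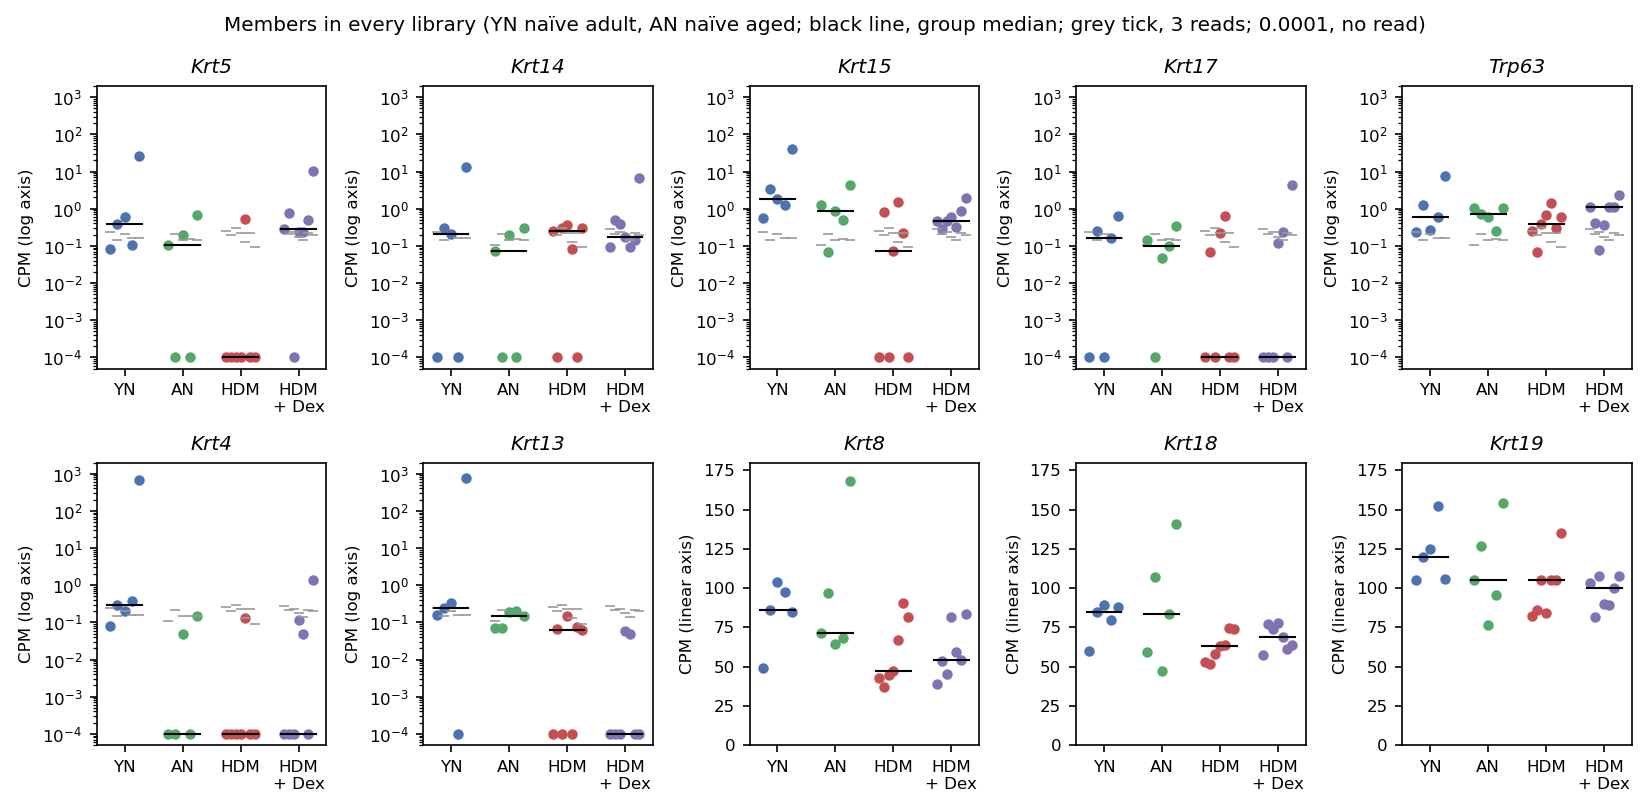
CPM of the 10 members in each library (points) by group, on a log axis for the basal and hillock genes and on a linear axis from 0 for Krt8, Krt18 and Krt19; black lines are group medians, grey ticks the value of 3 reads in that library, and 0.0001 a gene without a read. Naïve adult replicate 5 reached 678 CPM for Krt4 and 757 CPM for Krt13, and HDM + Dex replicate 7 reached 10.4 CPM for Krt5, whereas the simple-epithelium keratins overlapped between all groups.

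The library of naïve adult replicate 5 stood apart at 6 of the 7 basal and hillock genes. Krt13 was at 757 CPM in it and at 0.162, 0.247, 0.341 and 0.0001 CPM in the other 4 naïve adult libraries. Krt4 was at 678 CPM in it and at 0.0808, 0.297, 0.205 and 0.379 CPM in the others. Krt15 was at 41.0 CPM (0.565 to 3.41 CPM in the others), Krt5 at 26.3 CPM (0.0808 to 0.615 CPM), Krt14 at 13.1 CPM (0.0001 to 0.297 CPM) and Trp63 at 7.64 CPM (0.242 to 1.28 CPM). Per kilobase Krt13 (416 CPM) and Krt4 (318 CPM) were more abundant than the basal pair in this library. There Krt14 was at 7.43 CPM, and its partner Krt5 was 1.61 times as high. Krt17, at 0.645 CPM, was not raised to that extent, and Krt8 (84.8 CPM), Krt18 (88.2 CPM) and Krt19 (106 CPM) lay within the range of the other naïve adult libraries.

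Genes of stratified squamous epithelium and of skeletal muscle were high in the same library. It held 29 genes whose value (with 1 CPM added) was over 8 times that of every other library, whereas no other library held more than 1 such gene. Of the 17 squamous differentiation genes in the table, 11 were highest in it and 6 passed that fold, among them Rptn at 199 CPM (at most 8.07 CPM elsewhere), Lor at 63.2 CPM (at most 0.643 CPM), Tgm3 at 43.9 CPM and Sprr3 at 31.8 CPM (at most 0.101 CPM). The summed level of that list was 477 CPM here and 32.8 to 104 CPM in the other 23 libraries. The desmosome genes Pkp1 (26.2 CPM) and Dsg3 (10.1 CPM), which anchor keratin filaments in stratified epithelia, and the keratin Krt78 (at most 1.70 CPM elsewhere) were also among the 29. All 6 skeletal muscle genes were highest in it, with Acta1 at 117 CPM, Myh4 at 62.6 CPM and Tnnt3 at 48.6 CPM, and they summed to 289 CPM against 0.464 to 10.8 CPM elsewhere. Of the 6 heart muscle genes 2 were highest in it, and their sum, 928 CPM, lay within the 18.2 to 1105 CPM of the others. The part of other tissue in these values was not tested.

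HDM + Dex replicate 7 stood apart at Krt5, Krt14, Krt17, Trp63 and Krt4. Krt5 was at 10.4 CPM in it and at 0.0001 to 0.768 CPM in the other 6 HDM + Dex libraries. Krt14 was at 6.82 CPM (0.0929 to 0.489 CPM in the others), Krt17 at 4.39 CPM (0.0001 to 0.236 CPM), Trp63 at 2.36 CPM (0.0773 to 1.11 CPM), Krt15 at 1.90 CPM (0.279 to 0.862 CPM) and Krt4 at 1.38 CPM (0.0001 to 0.118 CPM). Elsewhere Krt15 reached 4.30 CPM in naïve aged replicate 5 and 3.41 CPM in naïve adult replicate 2, so its 1.90 CPM did not stand out over all groups. Krt13 was without a read in HDM + Dex replicate 7. This was the library with the highest Krt17 of all 24, and per kilobase its Krt5 (4.72 CPM), Krt14 (3.88 CPM) and Krt17 (2.83 CPM) were at like levels, whereas in naïve adult replicate 5 Krt14 was at 7.43 CPM and Krt17 at 0.416 CPM. The lists were compared with the 22 libraries other than these 2. Of the 17 squamous genes 1 was above those 22 in HDM + Dex replicate 7 (Sprr1a, at 2.23 CPM) and 5 were without a read, among them Sprr3, Tgm3 and Krtdap, whereas 11 were above the 22 in naïve adult replicate 5. Of the 12 desmosome genes 2 were above them in HDM + Dex replicate 7 (Pkp1 at 0.787 CPM and Dsg3 at 0.328 CPM) and 7 in naïve adult replicate 5. Of 15 partner genes of basal cells (hemidesmosome, laminin and others) 2 were above them in HDM + Dex replicate 7 and 4 in naïve adult replicate 5. The 2 were Cdh3, the cadherin of basal cells, at 3.15 CPM and Itgb4, a subunit of the hemidesmosome integrin, at 29.7 CPM. Itgb4 was at 29.4 CPM in naïve aged replicate 5. The 4 were Col17a1 (12.7 CPM), Aqp3 (7.85 CPM), Dapl1 (1.29 CPM) and Dlk2 (0.860 CPM). In HDM + Dex replicate 7 Aqp3 was at 0.918 CPM, the lowest of all 24 libraries. Of the 6 skeletal muscle genes 0 were above the 22 libraries in HDM + Dex replicate 7, where they summed to 1.01 CPM. The share of all genes above the 22 was not computed, so the count of 2 partner genes says nothing of basal cells. Krt222, a keratin-like gene, was at 12.8 CPM (at most 8.54 CPM elsewhere).

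**Figure D2:**
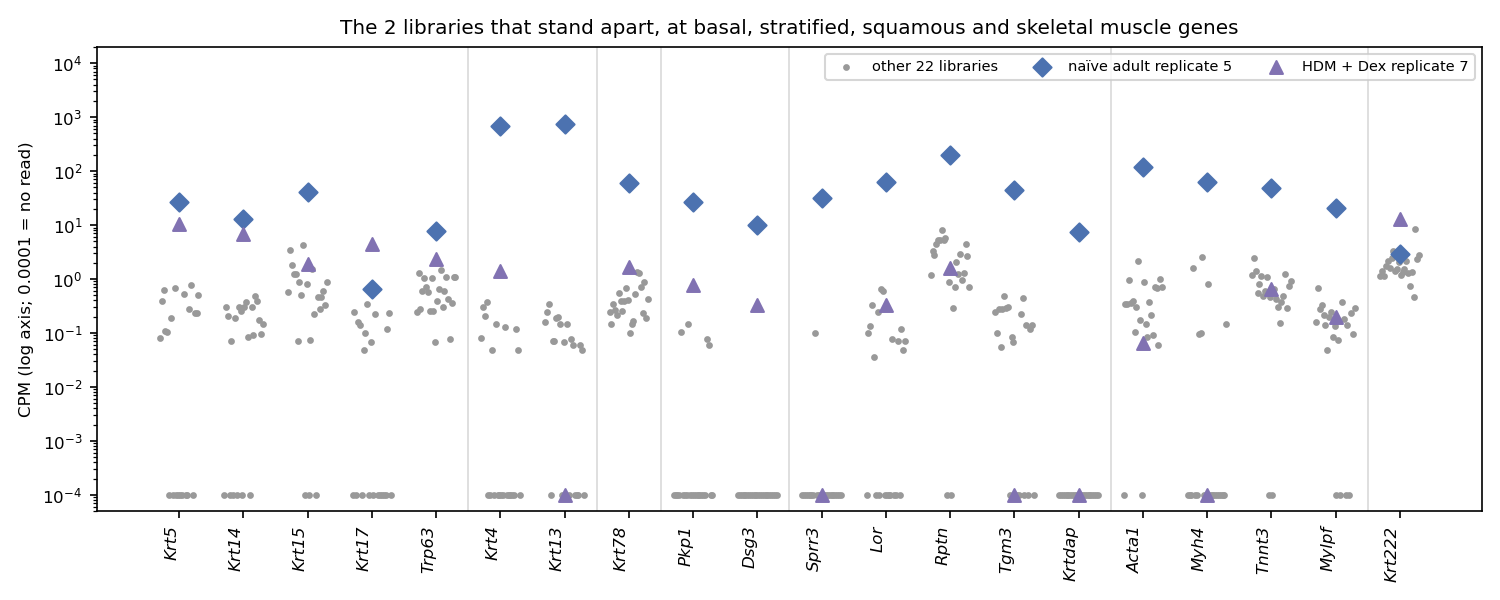
CPM (log axis, 0.0001 for no read) of the 7 basal and hillock genes and of Krt78, 2 desmosome, 5 squamous and 4 skeletal muscle genes and Krt222, in naïve adult replicate 5 (diamonds), HDM + Dex replicate 7 (triangles) and the other 22 libraries (dots). The diamonds lie above all dots at every gene drawn but Krt222, and the triangles lie above all dots at Krt5, Krt14, Krt17, Trp63, Krt4, Krt78, Pkp1, Dsg3 and Krt222 and among or below them at the other genes.

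Genes were tested if their mean over the 24 libraries was 1 CPM or more, and 7 of the 10 members passed that filter. Krt5 (1.73 CPM), Krt15 (2.60 CPM), Krt4 (28.4 CPM) and Krt13 (31.6 CPM) passed only with naïve adult replicate 5, which held 63.5%, 65.6%, 99.6% and 99.8% of their summed CPM. Without it their means were 0.657, 0.934, 0.123 and 0.0823 CPM. Krt14 (0.985 CPM), Trp63 (0.995 CPM) and Krt17 (0.307 CPM) did not pass. Only Krt8, Krt18 and Krt19 passed with both libraries left out.

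The first comparison asked how HDM challenge changed the aged lung. No member passed the limma test of HDM vs saline, at an adjusted p under 0.05, whereas 25.3% of the 17744 genes tested did (0 of 7 members, of which Krt8 and Krt15 had an unadjusted p under 0.05; no other tool was run). Only 3 of the 7, Krt8, Krt18 and Krt19, averaged 1 CPM or more without both libraries that stand apart. Krt5, Krt15, Krt4 and Krt13 entered through naïve adult replicate 5, which is not in this comparison. The lack of a call on those genes therefore cannot be set against the share of all genes. Over all genes tested the median log2 difference was -0.23. Krt8 was at 71.4, 96.9, 64.1, 68.3 and 168 CPM in the 5 saline libraries. It ran from 37.2 to 90.7 CPM in the 7 HDM libraries, with a median of 46.9 CPM, so the groups overlapped, although 4 of the 7 HDM libraries lay below every saline library. On the log2(CPM + 1) scale the difference was -0.64 ± 0.25 (SE), with a 95% interval of -1.17 to -0.12 and an adjusted p of 0.0648.

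Krt18, the partner of Krt8, was at 59.0, 107, 47.1, 83.3 and 141 CPM in saline and at 51.5 to 74.5 CPM (median 63.4 CPM) in HDM libraries. Its difference was -0.38 ± 0.19 on the same scale, with an interval of -0.78 to 0.02 and an adjusted p of 0.144. Krt19, which has no tail domain and is found in many simple epithelia, was at 105, 127, 76.6, 95.4 and 154 CPM in saline and at 82.5 to 135 CPM (median 105 CPM) in HDM libraries. Its difference was -0.13 ± 0.15, with an interval of -0.45 to 0.18. Naïve aged replicate 5 had the highest Krt8, Krt18 and Krt19 of all 24 libraries.

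The call on Krt8 depended on how it was tested. When the CPM of Krt8 and Krt8-ps were summed, the difference was -0.73 with an adjusted p of 0.0289, and Krt8-ps on its own fell, by 0.84 ± 0.21 (adjusted p = 0.00771), from a mean of 60.9 ± 22.1 CPM (SD, n = 5) to 33.7 ± 11.1 CPM (n = 7). Krt8 also passed without HDM replicate 6 (-0.76, adjusted p = 0.0260), without HDM replicate 7 (-0.73, adjusted p = 0.0356) and with the replicate number as a block, a fit that leaves out HDM and HDM + Dex replicates 6 and 7 (-0.89, adjusted p = 0.00395), whereas with the 7SL share as a covariate the difference was -0.04 (adjusted p = 0.935). Over all 30 alternatives the adjusted p of Krt8 ran from 0.00395 to 0.935. HDM replicates 6 and 7 were the 2 HDM libraries with a 7SL share below 25%, and the 2 with more Xist, the transcript of the inactive X chromosome, than Ddx3y, a gene of the Y chromosome. Krt8 was at 90.7 and 81.5 CPM in them and at 37.2 to 67.1 CPM in the 5 HDM libraries above 25%, beside 64.1 to 168 CPM in saline, where all 5 libraries were below 25%. In HDM + Dex, Krt8 was at 59.5 to 83.7 CPM in the 3 libraries below 25% and at 38.9 to 54.4 CPM in the 4 above. The part of the 7SL share in the level of Krt8 was not tested beyond this covariate. After median-of-ratios rescaling, which brought the median over all genes from -0.23 to -0.01, the difference of Krt8 was -0.39 (adjusted p = 0.172), that of Krt18 was -0.13 and that of Krt19 turned to 0.12.

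**Figure D3:**
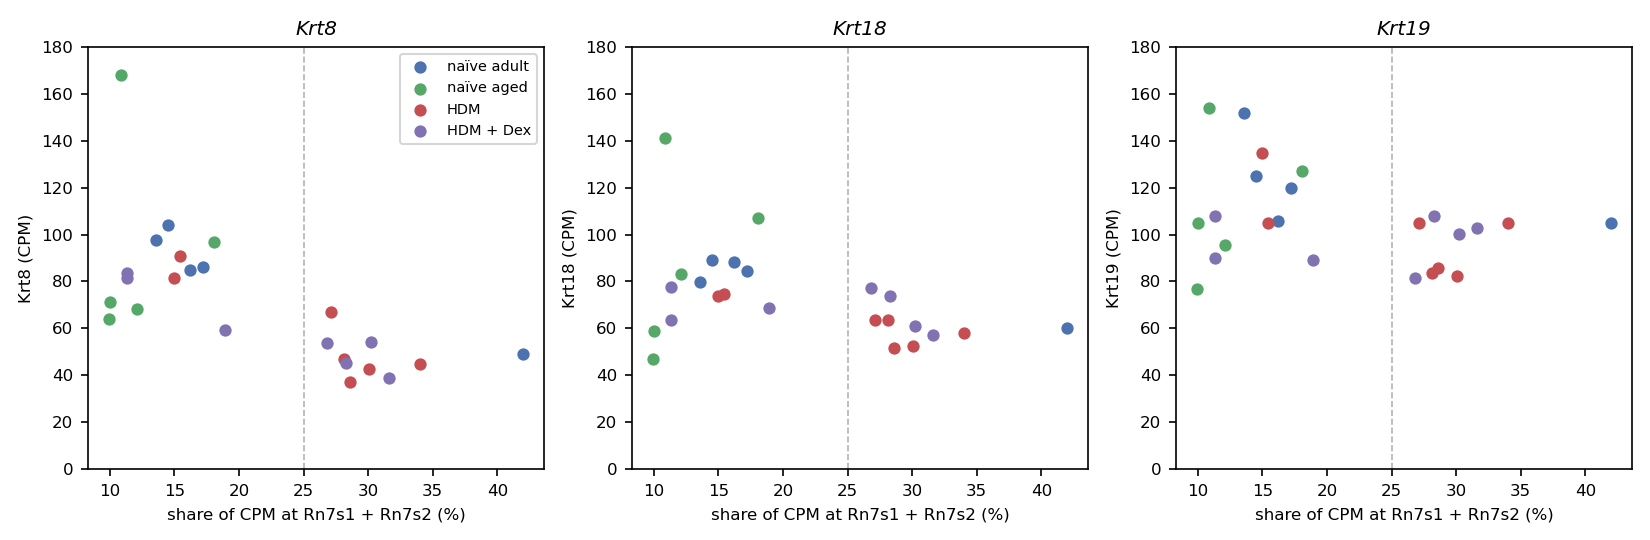
CPM of Krt8, Krt18 and Krt19 (linear axes from 0) against the share of CPM at Rn7s1 and Rn7s2 in each library, coloured by group, with a dashed line at 25%. Krt8 lay at or below 67.1 CPM in all libraries above 25% and at or above 59.5 CPM in all below, whatever their group.

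The basal and hillock genes were not detectably changed by HDM at this depth. Krt5 was at 0.106, 0.0001, 0.193, 0.0001 and 0.693 CPM in saline, and it was without a read in 6 of the 7 HDM libraries, with 0.538 CPM in the other. Krt15 was at 1.24, 0.0701, 0.870, 0.503 and 4.30 CPM in saline and at 0.0001 to 1.52 CPM (median 0.0741 CPM) in HDM libraries, a difference of -0.66 ± 0.32 with an adjusted p of 0.123, which fell to 0.0425 without naïve aged replicate 2 and ran up to 0.545 over the alternatives. Trp63 had at least 1 read in all 12 of these libraries, at 0.251 to 1.06 CPM in saline and at 0.0670 to 1.44 CPM in HDM. Krt14 was at most 0.297 CPM in saline and 0.370 CPM in HDM, and Krt17 at most 0.346 and 0.633 CPM. Krt4 and Krt13 stayed at or below 0.201 CPM in both groups.

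The second comparison asked what Dex changed in HDM-challenged lungs, and the third how the treated lungs compared with saline. Neither gave a call among the 7 members tested, of which Krt5, Krt15, Krt4 and Krt13 had entered only through naïve adult replicate 5. In HDM + Dex vs HDM 0.964% of all genes passed, and 1 member, Krt5, had an unadjusted p under 0.05. In HDM + Dex vs saline 1.89% passed, and 1 member, Krt8, had an unadjusted p under 0.05. The 2 comparisons share the HDM + Dex libraries, and the latter shares the saline libraries with HDM vs saline. Krt8 was at 38.9 to 83.7 CPM in HDM + Dex (median 54.4 CPM), a difference from HDM of 0.05 ± 0.23 with an interval of -0.43 to 0.53, and a difference from saline of -0.59 ± 0.25 with an interval of -1.12 to -0.07 (adjusted p = 0.187). Krt18 was at 57.3 to 77.8 CPM (median 68.8 CPM), and differed from HDM by 0.14 ± 0.18 and from saline by -0.25 ± 0.19. Krt19 was at 81.7 to 108 CPM (median 100.2 CPM), and differed from HDM by -0.03 ± 0.14 and from saline by -0.17 ± 0.15. The sign of the difference from HDM was not stable for Krt8 or Krt19, and with median-of-ratios rescaling that of Krt19 from saline turned to 0.05.

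Krt5 had at least 1 read in 6 of the 7 HDM + Dex libraries, at 0.278, 0.768, 0.236, 0.236, 0.503 and 10.4 CPM. Its difference from HDM was 0.75 ± 0.36 (adjusted p = 0.370), and 0.31 (adjusted p = 0.420) without HDM + Dex replicate 7. Over the alternatives that adjusted p ran from 0.202 to 0.558. Krt14 was read in every HDM + Dex library, at 0.0929 to 6.82 CPM, and Trp63 at 0.0773 to 2.36 CPM. By the limit of detection used here, Krt14 held 3 reads or fewer in 4 of the 7 HDM + Dex and 5 of the 7 HDM libraries. Krt5 did so in 2 of the 7 HDM + Dex and 6 of the 7 HDM libraries. The values of Krt13 in HDM + Dex, at most 0.0590 CPM, did not overlap those in saline, at least 0.0701 CPM, which is so for 2.40% of all genes tested, but most of these values were below that of 3 reads.

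**Figure D4:**
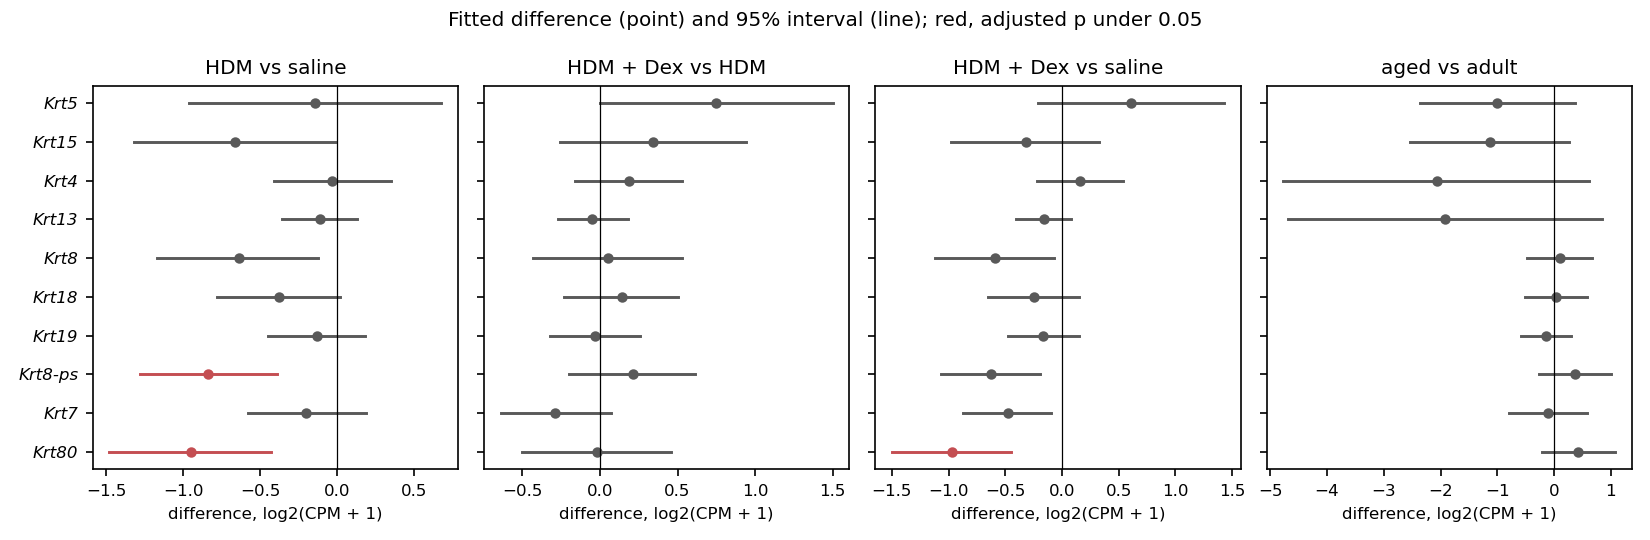
Fitted differences on the log2(CPM + 1) scale (points) with 95% intervals (lines) for the 7 members tested and for Krt8-ps, Krt7 and Krt80, in the 4 comparisons, with red for an adjusted p under 0.05. Every interval of a member is grey, Krt8-ps (-0.84) and Krt80 (-0.95) are red in HDM vs saline, and the intervals of Krt4 and Krt13 in aged vs adult are the widest.

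The last comparison asked how naïve aged and naïve adult lungs differed. No member passed (0 of 7, and 0 at an unadjusted p under 0.05), and 0.654% of all genes did. Krt5, Krt15, Krt4 and Krt13 had entered only through naïve adult replicate 5, a library of this comparison. The lack of a call among the 7 therefore cannot be set against that share. The fitted differences of Krt4 (-2.07 ± 1.28), Krt13 (-1.92 ± 1.31), Krt15 (-1.13 ± 0.66) and Krt5 (-1.01 ± 0.65) were those of the genes set apart in naïve adult replicate 5. Without that library they were -0.25, -0.06, -0.33 and -0.13, with adjusted p from 0.522 to 0.889, and over all alternatives the adjusted p of these 4 genes ran from 0.248 to 0.889. In the other 4 naïve adult libraries the median of Krt15 was 1.51 CPM, that of Krt4 0.251 CPM and that of Krt13 0.204 CPM. In naïve aged libraries the medians were 0.870 CPM for Krt15, 0.0001 CPM for Krt4 and 0.149 CPM for Krt13. Krt4 held 3 reads or fewer in 2 of those 4 adult and in all 5 aged libraries, and Krt13 in 2 adult and 3 aged libraries. Krt8 was at 49.2, 86.0, 104, 97.5 and 84.8 CPM in naïve adult libraries and differed by 0.10 ± 0.27 (interval -0.47 to 0.67) in the aged. Krt18 was at 60.0, 84.5, 89.0, 79.8 and 88.2 CPM and differed by 0.03 ± 0.26 (-0.52 to 0.58). Krt19 was at 105, 119.8, 125, 152 and 106 CPM and differed by -0.15 ± 0.21 (-0.59 to 0.29). The lowest Krt8 and Krt18 of the adults were in replicate 1, the library with a 7SL share of 42.0%. All 5 naïve adult libraries had more Xist than Ddx3y, as did 2 of the 5 naïve aged libraries.

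The order of the group medians of Krt8 was naïve adult (86.0 CPM), naïve aged (71.4 CPM), HDM + Dex (54.4 CPM) and HDM (46.9 CPM), and that of Krt18 was naïve adult (84.5 CPM), naïve aged (83.3 CPM), HDM + Dex (68.8 CPM) and HDM (63.4 CPM). Neighbours in these orders overlapped, and the tests between them were not passed; HDM + Dex vs naïve aged and HDM vs HDM + Dex are those given above. For Krt19 the medians were 119.8, 105, 100.2 and 105 CPM in naïve adult, naïve aged, HDM + Dex and HDM.

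Partner keratins were then compared across libraries, since a type I and a type II chain are needed for each filament. After the group means had been removed, log2(CPM + 1) of Krt8 and Krt18 correlated over the 24 libraries with a Pearson r of 0.74 (permutation p = 4e-05, adjusted p = 0.000120 over 3 pairs) and a Spearman rho of 0.74 (permutation p = 0.000240, adjusted p = 0.000720). By that r, Krt18 had rank 1244 among all genes in likeness to Krt8, so the relation was not particular to the pair. Without the 2 libraries farthest from the median of Krt8, naïve aged replicate 5 and HDM replicate 6, r was 0.61. After median-of-ratios rescaling r was 0.56 (permutation p = 0.0711), and it was 0.62 (permutation p = 0.0864) among libraries with a 7SL share above 25%. The ratio of Krt8 to Krt18 per kilobase ran from 0.449 to 0.999, with a median of 0.592 in HDM, 0.635 in HDM + Dex, 0.747 in naïve adult and 0.875 in naïve aged libraries. The ratio of Krt8-ps to Krt8 ran from 0.369 to 0.753, and it was lowest in naïve adult replicate 1. The 2 genes lie on chromosome 15 with 23697 bases between their starts, Krt8 (101996698 to 102004482) on the minus strand and Krt18 (102028180 to 102032027) on the plus strand.

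For Krt5 and Krt14 r was 0.97 (permutation p = 0.00210, adjusted p = 0.00315) and rho 0.85 (permutation p = 0.00137, adjusted p = 0.00205). The relation rested on the 2 libraries that stood apart: without them, and with group means recomputed, r was 0.34 (permutation p = 0.148) and rho 0.40 (permutation p = 0.0844). For Krt4 and Krt13 r was 0.99 (permutation p = 0.149, adjusted p = 0.149) and rho 0.56 (permutation p = 0.0551, adjusted p = 0.0551), and the relation rested on naïve adult replicate 5: r was -0.11 without it, -0.12 without it and naïve adult replicate 1, the 2 libraries farthest from the median of Krt4, and -0.17 without the 2 libraries that stood apart.

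**Figure D5:**
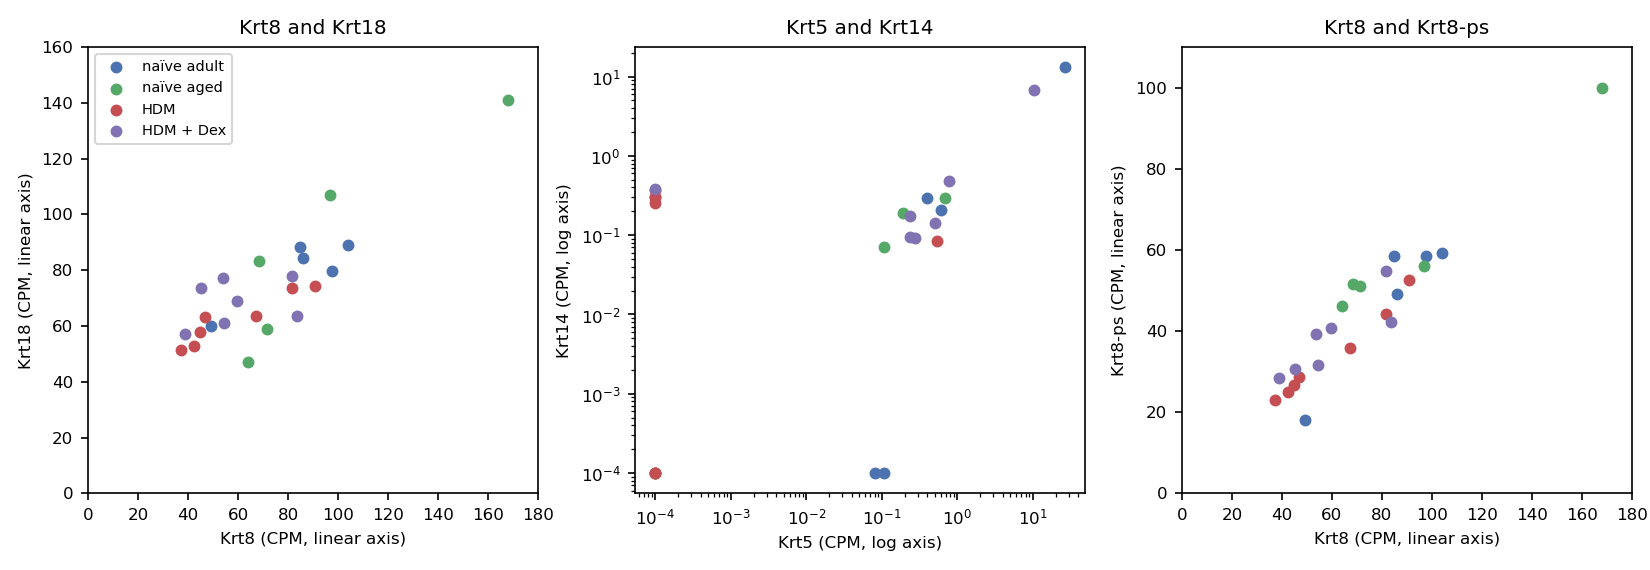
Krt18 against Krt8, Krt14 against Krt5 and Krt8-ps against Krt8 in each library, in CPM, coloured by group; the axes of Krt5 and Krt14 are logarithmic with 0.0001 for no read, and the others are linear from 0. Krt8 and Krt18 rise together over all groups, whereas the points of Krt5 and Krt14 above 1 CPM are the 2 libraries that stand apart.

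By the same measure, the genes most like Krt8 included Sorcs2 (r = 0.95), Actn1, Pcbp1 and Znhit1 (0.92 each), over 24 libraries that also differ in 7SL share. Krt18 and Krt19 were far lower, at ranks 1244 and 3168 (0.74 and 0.65). Those most like Krt4 were Pkp1 (1.00), Sprr3, Myh8 and Krt13 (0.99 each) and Myh1 (0.98), all high in naïve adult replicate 5, Myh8 and Myh1 being myosins of striated muscle. Those most like Krt5 were Pkp1 and Psapl1 (0.87 each), Krt4 (0.86), Ryr1 and Krt15 (0.84 each). Without the 2 libraries that stood apart, the genes most like Krt5 were Tnfsf15 (0.72), Sox9 (0.71), Aqp11 (0.70), Krt15 and Flnc (0.69 each), of which Krt15 was the only one in both lists. In those 22 libraries Krt5 was at 3 reads or fewer in 13, so these r values rest on levels near the limit of detection. They are the highest of all genes tested and were not tested against chance.

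There were 13 other keratin genes, of which 9 were tested. Krt78 was among the 9 only through naïve adult replicate 5, without which it averaged 0.506 CPM. In HDM vs saline, where 25.3% of all genes passed, 3 of the 9 fell (0 with the 7SL share as a covariate), namely Krt80, a keratin of many epithelia, by 0.95 ± 0.25 (adjusted p = 0.00990), Krt87, a hair keratin, by 0.79 ± 0.25 (adjusted p = 0.0235), and Krt8-ps. Krt80 also fell in HDM + Dex vs saline, by 0.97 ± 0.25 (adjusted p = 0.0482), from 79.1 to 233 CPM in saline to 50.0 to 62.3 CPM, with no overlap, and its adjusted p there ran from 0.0158 to 0.438 over the alternatives. Krt7, a type II keratin of simple epithelia (63.8 to 259 CPM), was not called in any of the 4 comparisons (-0.20 ± 0.19 in HDM vs saline). Nor were Krt79, Krt10, Krt23, Krt222 and Krt78. In HDM vs saline their differences were -1.30 ± 0.60 (adjusted p = 0.111), -0.46 ± 0.19 (adjusted p = 0.0752), -0.32 ± 0.20, -0.28 ± 0.40 and 0.08 ± 0.22.

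The desmosomes and hemidesmosomes to which keratins attach, and the general epithelial genes, were lower in the HDM libraries in part. Of 10 desmosome genes tested 6 fell in HDM vs saline and 0 rose (median -0.65), led by Perp, a desmosomal protein of stratified epithelia, by 1.14 ± 0.18 (adjusted p = 0.000509), Ppl, a plakin that links keratin filaments to the membrane, by 1.00 ± 0.20 (adjusted p = 0.00182), and Dsg2, the desmoglein of simple epithelia, by 1.04 ± 0.22 (adjusted p = 0.00261). Of 13 basal partner genes 5 fell (median -0.33), among them the plakin gene Dst by 0.69 ± 0.15 (adjusted p = 0.00300) and Col17a1, a hemidesmosome collagen, by 0.59 ± 0.19 (adjusted p = 0.0251). Of 15 general epithelial genes 6 fell (median -0.45), among them the splicing regulator Esrp1 by 0.84 ± 0.22 (adjusted p = 0.00842). Of the 10 squamous genes tested 1 fell (Rptn, by 2.09 ± 0.29) and 1 rose (Tgm1, by 0.95 ± 0.28). Of 10 genes of the Krt8-high transitional state 1 rose (Lgals3, by 1.79 ± 0.31) and 1 fell (Cdkn1a, by 0.65 ± 0.19). Sprr3, Lor and Tgm3 (squamous) and Pkp1 (desmosome) passed the filter only through naïve adult replicate 5, which is not in this comparison. Elsewhere they were at most 0.101, 0.643, 0.490 and 0.787 CPM, so the lack of a call on them says nothing. Since 25.3% of all genes passed in this comparison, 717 of them higher and 3765 lower (1958 and 2035 after median-of-ratios rescaling, 1172 and 399 with the 7SL share as a covariate), the counts are read beside that share. With that covariate the genes that fell were 1 of 10 desmosome, 0 of 13 basal partner and 0 of 15 general epithelial genes, and after rescaling they were 4, 1 and 4. Dsg2 was at 6.27 to 9.67 CPM in the 5 HDM libraries with a 7SL share above 25%, at 14.9 and 18.7 CPM in the other 2 and at 16.7 to 25.0 CPM in saline.

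Markers of the cells that make these keratins moved as follows in HDM vs saline. All 10 ciliated cell genes fell (median -1.53), 5 of 6 club cell genes fell (median -2.24) and 3 of 10 type 1 cell genes fell (median -0.41), while of the 10 type 2 cell genes 1 rose (Sftpd) and 0 fell, and of 6 goblet cell genes 2 rose (Clca1 and Muc5ac). Of the other lists, all 6 heart muscle genes fell (median -2.48), as did 2 of 5 skeletal muscle genes, 1 of 10 mesothelial genes and 1 of 7 leukocyte genes, and the 1 thymus gene tested (Ccl25) was not called. Of the skeletal muscle genes tested, Acta1, Myh4, Mylpf and Tnnt3 passed the filter only through naïve adult replicate 5, which is not in this comparison. With the 7SL covariate 3 ciliated, 0 club, 0 type 1 and 2 heart muscle genes fell. In HDM + Dex vs HDM, where 0.964% of all genes passed, 5 of 10 ciliated cell genes rose and no other gene of these lists was called. None of the 10 was called when only these groups were fitted, nor in 8 of the 19 fits that left out 1 library (HDM or HDM + Dex replicate 1, 3, 4 or 5), and at most 9 were called (replicate block). In HDM + Dex vs saline, 2 goblet genes rose and, beside Krt80, only Rptn, Cdkn1a and the mesothelial gene Upk1b fell. In aged vs adult, S100a8 rose and Clca1 fell. The part of cell composition in the level of Krt8 was not tested.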

How the data were processed

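RNA-Seq libraries of 24 left lung lobes were made, by the methods, with a stranded mRNA kit and read in pairs of 50 bases; the submitters' processing notes name FastQC, STAR and DESeq2 and the build mm9, and the methods name a Picard-STAR-limma pipeline. The authors deposited CPM, counts scaled to equal library totals with 0.0001 added to every value. The gene coordinates of the table were those of GENCODE M21 (GRCm38) for 23049 of 23276 shared symbols, and that build is used here. How reads that fit several genes were counted, and whether strand was used, are not given in the sources used here.

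The members and all gene lists were chosen with earlier results of these data known. Groups follow the sample labels. Whether replicates came from separate cages or litters is not stated, so p-values measure the spread between these mice. From log2(CPM + 1), limma 3.58.1 (R 4.3.3) linear models with eBayes and a mean-variance trend were fitted for the 17744 genes averaging 1 CPM or more in the whole table, once over the 19 aged libraries, which gave the 3 comparisons among saline, HDM and HDM + Dex, and once over the 10 naïve libraries for aged vs adult. P-values were adjusted over all genes tested by the Benjamini-Hochberg method at 0.05, and fold changes of low genes are understated on this scale. The fit was tested on simulated data, where 199 of 200 genes changed 4-fold were recovered in HDM vs saline and in aged vs adult. Other genes called numbered 9 and 8. The changed genes averaged 5 CPM or more, so this test does not cover genes near the limit of detection or smaller changes. Correlations used 100000 permutations within groups, two-sided, and 20000 when leaving out a library. Depth was estimated from the spacing of low values. Of the values under 20 spacings, 80.5% to 85.3% lay within 0.05 of a whole multiple, so no counts were recovered and no count test was run; the 10.1 to 33.1 M reads set the value of 3 reads. Levels per kilobase use merged exons of GENCODE M21.

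Named were all members, other keratins of at least 1 CPM, up to 3 genes per list with the lowest adjusted p, the 5 genes most correlated with Krt5, Krt4 and Krt8 (of which 1 is not reported here), and sample measures (Rn7s1, Rn7s2, Xist, Ddx3y). Genes named for naïve adult replicate 5 and HDM + Dex replicate 7, and Krt222, were chosen after their values were seen. The lists were other keratins, basal partners, desmosome, squamous, transitional, general epithelium, type 1, type 2, ciliated, club, goblet, mesothelium, thymus, skeletal muscle, heart muscle and leukocyte genes. Alternatives were pseudocounts of 0.1 and 5, no filter or one of 5 CPM, median-of-ratios rescaling, a replicate block, other sets of groups, no trend, sex and 7SL covariates and each library left out; summing Krt8 with Krt8-ps and leaving out both libraries that stand apart were added after seeing the data. A text file without expression values was not used. Python 3.11.15, numpy 2.4.6, pandas 2.3.3, scipy 1.17.1 and matplotlib 3.10.9 were used.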

Additional observations from a re-analysis of the deposited data

Results flagged for a closer look

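The 40 sets of member values (10 genes in 4 groups) were searched for a highest or lowest library whose gap to its neighbour was a large part of the whole range, at a level that chance passes in about 1 of 20 groups, and 16 were found, each for a highest library. Of the naïve adult libraries, replicate 5 was set apart at Krt5 (26.3 CPM), Krt14 (13.1 CPM), Krt15 (41.0 CPM), Trp63 (7.64 CPM), Krt4 (678 CPM) and Krt13 (757 CPM). Of the HDM + Dex libraries, replicate 7 was set apart at Krt5 (10.4 CPM), Krt14 (6.82 CPM), Krt15 (1.90 CPM), Krt17 (4.39 CPM) and Krt4 (1.38 CPM). Of the naïve aged libraries, replicate 5 was set apart at Krt5 (0.693 CPM) and Krt15 (4.30 CPM). Of the HDM libraries, replicate 5 was set apart at Krt5 (0.538 CPM), Krt17 (0.633 CPM) and Krt4 (0.127 CPM), the last at the value of 3 reads. The sets are not independent, since the same libraries recur. The chance level does not hold where the other libraries of a set were without a read, as for Krt5 and Krt4 in HDM. Any library with reads is then set apart, so the 16 cannot be weighed against that level. No set of Krt8, Krt18 or Krt19 values was found.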

How the results depend on the processing

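The count of members called was 0 in HDM + Dex vs HDM, HDM + Dex vs saline and aged vs adult under every alternative run. In HDM vs saline it was 0 under 24 of 30 alternatives. It was 1 with the replicate block (Krt8), 1 with Krt8 and Krt8-ps summed, and 0 to 1 when each library was left out, the 1 being Krt8 without HDM replicate 6 or 7, Krt15 without naïve aged replicate 2 and Krt18 without naïve aged replicate 3 (-0.58). Replicate numbers did not pair the samples: same-numbered libraries of different groups correlated in their deviations from group means by -0.24 to 0.41, so the block, which leaves out HDM and HDM + Dex replicates 6 and 7, tells nothing of pairing, and it gave 0 member calls in the other 3 comparisons. Over all genes, the count called moved by more than 1.5 times in HDM vs saline from 4482 to 6852 (block) and 1571 (7SL covariate). In HDM + Dex vs HDM it moved so from 171 to 641 (block), 563 (7SL), 505 (rescaling), 293 (sex), 83 (no filter) and 1 (only these groups). In HDM + Dex vs saline it moved so from 335 to 1929 (sex), 519 (only these groups), 221 (no trend), 213 (no filter), 169 (rescaling) and 34 (7SL). In aged vs adult it moved so from 116 to 186 (rescaling), 67 (mean of 5 CPM) and 65 (all groups). Without any 1 library the count ran from 2954 to 5338 in HDM vs saline and from 2 to 544 in HDM + Dex vs HDM. It ran from 66 to 772 in HDM + Dex vs saline and from 74 to 154 in aged vs adult.

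For Krt5 and Krt14 r was -0.13 among libraries with a 7SL share above 25%, 0.34 without both libraries that stand apart and 0.92 to 0.98 without any 1 library. For Krt8 and Krt18 r was 0.56 after median-of-ratios rescaling, 0.62 above 25% and 0.64 to 0.79 without any 1 library. For Krt4 and Krt13 r was -0.37 above 25%, -0.17 without both and -0.11 to 1.00 without any 1 library, the lowest without naïve adult replicate 5. The differences that turned sign were small and were not called. In HDM + Dex vs HDM that of Krt8 was -0.05 with sex and -0.08 with the 7SL share as a covariate (-0.05 to 0.16 without any 1 library), and that of Krt19 was 0.03 with the replicate block (-0.07 to 0.04). With median-of-ratios rescaling Krt19 turned to 0.12 in HDM vs saline and 0.05 in HDM + Dex vs saline. In aged vs adult, rescaling, sex and the 7SL share gave -0.11, -0.30 and -0.15 for Krt8 (-0.14 to 0.21 without any 1 library) and -0.18, -0.34 and -0.06 for Krt18 (-0.17 to 0.22). The cause of these turns was not tested. The depth, at 0.0906 to 0.298 CPM for 3 reads, limits what can be seen of Krt4, Krt13, Krt5, Krt14 and Krt17.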
